A study of Rattus norvegicus with 6 samples.

Results

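The genes described here encode the enzymes that make prostaglandins: Ptgs1 and Ptgs2, Ptges, Ptgds and Ptgis. They were measured in retinal ganglion cells, which carry visual signals from the eye to the brain through the optic nerve. Their 7 probe sets, of 31042 on the array that are no controls, are those whose platform annotation gives exactly 1 of these 5 symbols. The set was chosen by a result of the same comparison, since Ptgs2 ranked among the genes with the largest difference between eyes, so the differences of all members between eyes are given as a description, with no test.

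Both eyes of 3 adult male Brown Norway rats were studied, with 1 array per eye. In each rat, hypertonic saline injected into an episcleral vein raised the pressure of 1 eye for 10 days, while the other eye served as its control. In all eyes the ganglion cells carried Fluorogold, a tracer taken up from the superior colliculus, and 2000 cells per eye were cut out of frozen sections by laser capture. The groups are the right eyes (OD, n = 3) and the left eyes (OS, n = 3). Which eye was injected is not given in the labels, so the sign of a difference between OS and OD cannot be read as an effect of pressure. If the injected side varied between rats, an effect of pressure would partly cancel. No genetic modification is stated for any rat. Each sample is a pool of captured cells that can carry RNA of neighbouring cells, and fewer cells of a type and less RNA per cell cannot be told apart.

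Prostaglandins are short-lived lipid signals made from arachidonic acid, which phospholipases free from membranes. The cyclooxygenases Ptgs1 and Ptgs2 turn it into the common intermediate prostaglandin H2, and terminal synthases turn that into the single prostaglandins. Ptgs1 is expressed steadily in many cells, whereas Ptgs2 is induced by inflammatory signals and, in neurons of the brain, by synaptic activity. Ptges makes prostaglandin E2, Ptgds makes prostaglandin D2 and Ptgis makes prostacyclin. The products act on G protein-coupled receptors and are cleared by transporters and dehydrogenases.

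The promoters of both cyclooxygenase genes are shown because Ptgs2 is the member with the largest difference between eyes and Ptgs1 is its steadily expressed counterpart. Each window runs from 250 bases before to 50 bases after the annotated start (RefSeq, build GRCr8). Ptgs2 lies at chr13:64713813-64714112 and Ptgs1 at chr3:39981169-39981468, both on the plus strand. Capitals mark matches, on either strand, to 4 motifs: the TATA box TATAAA, the E-box CACGTG, the C/EBP motif TTNNGNAA and the cyclic AMP response element TGACGTCA.
Ptgs2: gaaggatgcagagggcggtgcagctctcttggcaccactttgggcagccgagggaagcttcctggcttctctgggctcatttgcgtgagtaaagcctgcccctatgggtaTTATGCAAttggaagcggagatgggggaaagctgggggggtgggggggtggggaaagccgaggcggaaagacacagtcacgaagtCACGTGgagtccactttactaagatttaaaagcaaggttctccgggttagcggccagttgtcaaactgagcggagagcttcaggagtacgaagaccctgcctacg
Ptgs1: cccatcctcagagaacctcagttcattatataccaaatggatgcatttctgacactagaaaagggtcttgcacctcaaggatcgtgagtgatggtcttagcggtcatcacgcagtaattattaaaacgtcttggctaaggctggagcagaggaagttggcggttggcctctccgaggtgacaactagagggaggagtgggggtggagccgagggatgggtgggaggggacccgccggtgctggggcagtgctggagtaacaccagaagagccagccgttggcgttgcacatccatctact

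The Ptgs2 window held 1 E-box, which began 55 bases before the start, and 1 C/EBP match, TTATGCAA, which began 140 bases before it. The Ptgs1 window held 0 matches to these 4 motifs. Of 33469 rat promoter windows of the same length, 6.42% held the E-box, 41.3% the C/EBP motif, 14.2% the TATA box and 1.83% the cyclic AMP response element. A match is a description of the letters and not a binding site. The annotated long noncoding RNA gene Ptgs2os ends 225 bases before the Ptgs2 start, so it overlaps the first 25 bases of the window. A promoter sequence was found for 4 of the 5 members, Ptgs1, Ptgs2, Ptges and Ptgds.

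Signal against background was read from 27 probe sets for bacterial RNAs, which were assumed not to have been added to the samples. The 95th percentile of these probe sets on each array, called the control limit here, lay between 261 and 591 intensity units. Intensities are linear, and every array had the same 2% trimmed mean, 500.1. Of the member values, 18 of 42 (42.9%) exceeded this limit, near the 45.5% of all probe sets. They were 10 of 21 in OD and 8 of 21 in OS, beside 48.3% and 42.6% of all. On single arrays, 6 of the 7 member probe sets were above it at most, on the OD array of rat 1, and 1 at least, on that of rat 2. These arrays also had the highest and the lowest share of all probe sets above it, 58.1% and 34.8%. Of the members, 0 exceeded it on all 6 arrays, against 11.3% of all probe sets. Only Ptgis, 1 of 7, exceeded it on none, against 14.8% of all.

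**Figure D1:**
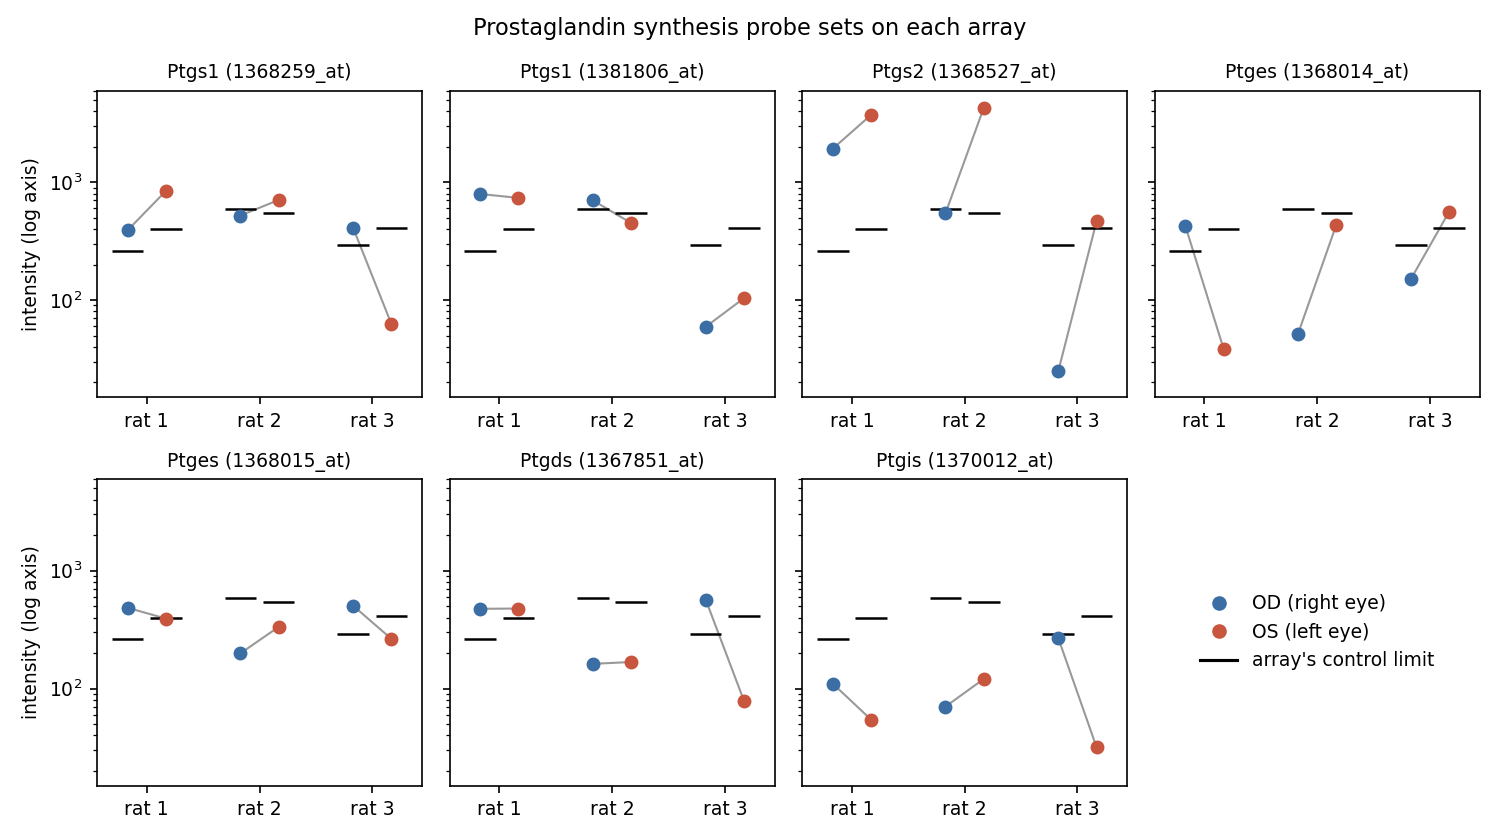
Intensity (log axis) of the 7 member probe sets in the right (OD) and left (OS) eye of each rat, joined within rats; black bars mark each array's control limit. Ptgs2 is far above the limit on 3 arrays, up to 4292.3, and every Ptgis value lies below it.

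Ptgs2 (1368527_at), the inducible cyclooxygenase, had more signal in the left than in the right eye of 3 of 3 rats. Its intensity was 1922.9 (OD) and 3725.6 (OS) in rat 1, 545.2 and 4292.3 in rat 2, then 24.9 and 468.1 in rat 3. Both OS arrays of rats 1 and 2 were bright and the OD array of rat 3 was the dimmest. The eyes overlapped, since the OD value of rat 1 exceeded the OS value of rat 3. Relative to the control limit, the OS values stood at 9.32, 7.85 and 1.14 times it in rats 1 to 3, and the OD values at 7.38, 0.923 and 0.085 times it. By this limit the gene had signal in 3 of 3 left eyes and in 1 of 3 right eyes. That contrast depends on the limit, which was 591 on the OD array of rat 2 and 409 on the OS array of rat 3. The OD value of rat 2 thus fell below its limit although it exceeded the OS value of rat 3. Above the median of the controls, Ptgs2 stood on 5 arrays.

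Within rats, the Ptgs2 difference (OS minus OD, on the scale of log2 of intensity plus 16) was 0.95, 2.94 and 3.57, with a mean of 2.48 ± 1.37 (SD, n = 3 rats). In linear terms OS was 1.94 times OD in rat 1, where both eyes were above the limit. In rats 2 and 3, where OD lay below its limit, the ratio is at least 7.27 and 1.60, computed against the limit of the OD array. The size of the change was thus measured on both sides in 1 rat and is a lower bound in the other two. Rat 3 stood apart from the others on the first principal component of all tested probe sets, which held 34.4% of the variance. Without rat 3 the mean Ptgs2 difference was 1.94, without rat 1 it was 3.25, and without rat 2 it was 2.26.

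**Figure D2:**
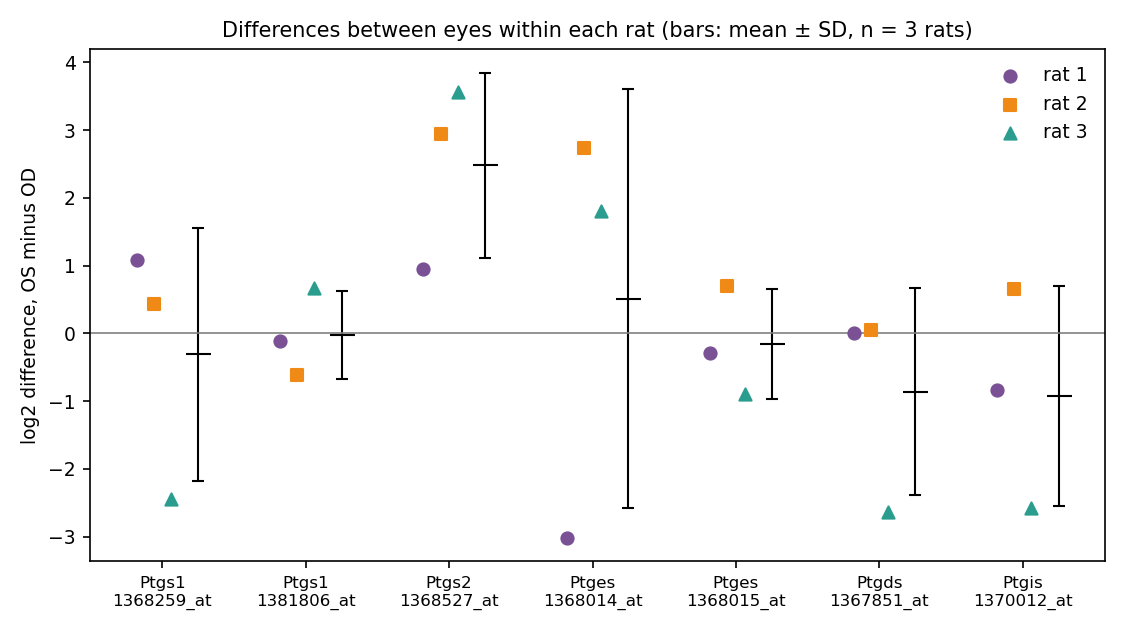
Difference between eyes (OS minus OD, log2 scale) of each member probe set in each rat (symbols), with mean ± SD over 3 rats (bars). Ptgs2 alone lies on 1 side of 0 in all 3 rats, from 0.95 to 3.57.

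Markers of ganglion cells and of other cells were read on the same arrays, each gene by its brightest probe set. Among ganglion cell markers, 6 of 11 exceeded the limit on all 6 arrays and the others on at least 1, including Thy1, a surface glycoprotein gene, and Rbpms, an RNA-binding protein gene. Nefl exceeded it on 5 arrays, Sncg on 5 and Pou4f1 on 4. Their summed intensity was 18106 to 28393 in OD and 11644 to 17229 in OS. This sum was lower in each left eye, where Ptgs2 was higher. The same held for the amacrine and pigment epithelium sums given below. Gap43 and Nefh made up 42.2% to 60.9% of the ganglion cell sum. Nefh was lower in OS in all 3 rats, while Gap43 differed by 0.01 ± 0.83 (SD, n = 3 rats). For the ganglion cell list, 9 of 11 genes had a lower mean in OS. In all 3 rats 6 of 11 were lower there, beside 12.2% of all probe sets. Markers of amacrine cells summed to 19122 to 50964 in OD and 8463 to 13604 in OS, and those of the pigment epithelium to 7963 to 43431 and 2717 to 8228. The amacrine sum is mostly Calb2 and Gad1, which made up 75.8% to 97.1% of it and were lower in OS in 3 of 3 rats, while 2 of the 7 amacrine markers had a higher mean in OS. Of the pigment epithelium markers, 9 of 9 had a lower mean in OS. Lower there in all 3 rats were 4 of 9, beside 12.2% of all probe sets. The pigment epithelium sums overlapped between eyes, since the highest OS sum exceeded the lowest OD sum. Within rats the sum was still lower in each left eye. From OD to OS it went from 18402 to 2717 in rat 1, 7963 to 6231 in rat 2 and 43431 to 8228 in rat 3.

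Microglia and macrophage markers summed to 2460 to 5633 in OD and 3507 to 5324 in OS, with 1 of 9 above the limit on all arrays and the others on at least 1. The sums of the other lists overlapped between eyes in each case: endothelium and pericytes 6342 to 7650 against 3403 to 13492, Mueller glia and astrocytes 5495 to 11536 against 4862 to 14500, photoreceptors 4915 to 17371 against 6565 to 12697, oligodendrocytes 1163 to 3188 against 1418 to 3833, and fibroblasts and meninges 1923 to 1983 against 1887 to 3892. Markers above the limit on no array were Slc1a2 of glia, Chat of amacrine cells and Olig2 of oligodendrocytes. As a measure of RNA integrity, the log2 ratio of the 3' to the 5' signal of the beta-actin control was higher in the left eye of 3 of 3 rats, by 1.40 ± 0.58 (SD, n = 3 rats), and that of Gapdh differed by -0.59 ± 2.08. The part of cell content and RNA integrity in the Ptgs2 difference was not tested.

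Of the 7 member probe sets, 1 had the same direction in all 3 rats, Ptgs2, against 27.1% of all probe sets (14.9% higher and 12.2% lower in OS). Since Ptgs2 was chosen by this contrast, nothing is read from that count. The other 6 probe sets had mixed directions.

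Ptgs1, the steadily expressed cyclooxygenase, has 2 probe sets, and they gave opposite directions in 3 of 3 rats. For 1368259_at the values were 391.1 (OD) and 843.6 (OS) in rat 1, 521.7 and 707.0 in rat 2, then 409.1 and 62.4 in rat 3. The OS array of rat 3 was the single low value, and the difference of -0.31 ± 1.87 (SD, n = 3 rats) became 0.75 without rat 3. For 1381806_at the values were 794.5 and 735.7 in rat 1, 700.9 and 449.7 in rat 2, then 59.3 and 103.9 in rat 3.

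By this second Ptgs1 probe set both eyes of rat 3 were the dimmest, and the mean difference between eyes was -0.02 ± 0.65 (SD, n = 3 rats). The first probe set exceeded the control limit on 4 arrays and the second on 3. Both were above it in both eyes of rat 1 and below it in OS of rat 3. In rat 2 they gave opposite pictures, with OD at 0.883 and OS at 1.29 times the limit by the first, against 1.19 and 0.823 by the second. In OD of rat 3 the first stood at 1.40 times the limit and the second at 0.202 times. The level of Ptgs1 is therefore uncertain in rats 2 and 3.

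Ptges, which encodes the inducible prostaglandin E synthase, also has 2 probe sets. The first, 1368014_at, read 427.6 (OD) and 38.5 (OS) in rat 1, 51.8 and 437.6 in rat 2, then 150.4 and 562.6 in rat 3. It was thus above the limit in the right eye of rat 1 and the left eye of rat 3 and below it on the other 4 arrays, both eyes of rat 2 among them. The within-rat differences were -3.02, 2.74 and 1.80, and their sizes rest on values below the limit. The second, 1368015_at, was flatter, with values from 198.8 to 504.6 and differences of -0.29, 0.70 and -0.90.

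The Ptges probe sets differed in direction in rat 3 only, and each exceeded the limit on 2 of 6 arrays. They shared 1 of these, the OD array of rat 1. Their mean differences were 0.51 ± 3.09 and -0.16 ± 0.81 (SD, n = 3 rats), both smaller than their spread.

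Ptgds, the lipocalin-type prostaglandin D synthase, is an abundant transcript of the meninges and is also made by the pigment epithelium. Its probe set 1367851_at read 475.2 (OD) and 477.5 (OS) in rat 1, 162.1 and 168.0 in rat 2, then 568.9 and 78.4 in rat 3. The eyes of rat 1 were nearly equal, with a difference of 0.01, and both eyes of rat 2 lay below the limit. Rat 3 had a difference of -2.63, with OS below the limit, so that OD was at least 1.39 times OS there. The mean of -0.86 ± 1.53 (SD, n = 3 rats) rests on rat 3 and was 0.03 without it. Ptgds was above the limit in both eyes of rat 1 and the right eye of rat 3.

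Ptgis, the prostacyclin synthase of vessel walls, was at or below the limit throughout. Its values were 110.2 and 54.5 in rat 1, 70.3 and 120.8 in rat 2, then 267.9 and 31.7 in rat 3 (OD, then OS). The highest, in OD of rat 3, reached 0.915 times the limit of its array. No level or fold can be given for it, and a difference between eyes was not detectable.

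In the other genes of the pathway, 0 of 17 tested probe sets passed limma's test between eyes at an adjusted p of 0.05 (smallest adjusted p = 0.622). Over all 15521 tested probe sets 0.0129% passed, which is 2. At an unadjusted p under 0.05, 1 of the 17 was higher in OS and 0 lower, against 2.60% higher and 4.31% lower of all tested. The list held 41 genes with 52 probe sets, of which 35 were too dim to enter the test. Among the 52, 13 were higher in OS in all 3 rats and 4 lower, beside 14.9% and 12.2% of all probe sets. Of these 13, 6 were receptor probe sets, which were all too dim to be tested. The median difference of the 52 was 0.14, beside 0.05 for all probe sets.

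Phospholipases, which free arachidonic acid, had 19 probe sets for 16 genes, with a median difference of -0.04. Pla2g15, a lysosomal phospholipase, was above the limit on all 6 arrays, from 857.9 to 1735.0, and differed by -0.24 ± 0.70 (SD, n = 3 rats). Pla2g4a, the cytosolic enzyme that is best known for feeding the cyclooxygenases, exceeded the limit on 0 of 6 arrays. Pla2g6, a calcium-independent phospholipase, had the smallest p (1377408_at, 1.72 ± 1.55, limma adjusted p = 0.622).

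This Pla2g6 probe set read 887.3, 948.6 and 81.4 in OD and 1412.7, 1908.3 and 1083.2 in OS of rats 1 to 3. The eyes did not overlap for it, as for 10.0% of all probe sets. The other 2 Pla2g6 probe sets did not show the same: 1370385_at differed by -0.92 ± 1.02, lower in OS in 3 of 3 rats, and 1387941_s_at by -0.65 ± 1.81.

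Terminal synthases outside the members had 12 probe sets for 11 genes, with a median of -0.23. Hpgds, the glutathione-dependent prostaglandin D synthase of immune cells, was the only one higher in OS in all 3 rats. It read 347.8, 238.0 and 109.0 in OD and 647.5, 822.7 and 541.0 in OS of rats 1 to 3. The eyes did not overlap for Hpgds, as for 10.0% of all probe sets. Hpgds exceeded the limit on 3 of 3 OS and 1 of 3 OD arrays. Its difference of 1.58 ± 0.66 missed the threshold (limma adjusted p = 0.781). In rat 1, with both eyes above the limit, OS was 1.86 times OD, and in rats 2 and 3, with OD below it, at least 1.39 and 1.85 times.

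The remaining prostaglandin E synthases went different ways in different rats. Ptges2, a membrane-associated form, differed by 0.13, -1.01 and 1.86, and Ptges3, a cytosolic form that is also a cochaperone, by -3.33, 0.62 and 1.05.

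The receptor list had 11 probe sets for 8 genes, none bright enough to be tested. It holds 7 prostanoid receptor genes and Ptgfrn, whose product associates with the prostaglandin F receptor and is no prostanoid receptor. Of the 11 probe sets, 6 were higher in OS in all 3 rats, beside 14.9% of all probe sets, and 1 lower, with a median of 1.10, and 0 of 11 exceeded the limit on all arrays. Without Ptgfrn, 5 of 10 were higher and 1 lower. Ptger3, a receptor for prostaglandin E2, read 433.5, 132.1 and 81.9 in OD and 863.5, 554.3 and 113.0 in OS (1369187_a_at, 1.10 ± 0.78). Its other probe set, 1376977_at, differed by 1.66, -5.02 and 2.88. Ptgfr, the receptor for prostaglandin F2 alpha, differed by 1.31 ± 1.57 (1369127_a_at), with only rat 3 far apart, and by 0.33 ± 1.44 in its other probe set.

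The 2 probe sets of the receptor gene Ptger1 opposed each other in 3 of 3 rats, at 2.91 ± 0.79 and -1.15 ± 1.19. Each was above the limit on 1 array, so neither size is measured on both sides. The probe sets for Ptgdr are annotated to more than 1 gene and are not named here.

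Transport and breakdown genes had 10 probe sets for 6 genes. Abcc4, which exports prostaglandins, read 1642.6, 1207.7 and 289.6 in OD and 1717.9, 2628.2 and 955.6 in OS, a difference of 0.95 ± 0.81 (limma adjusted p = 0.781). Slco3a1, an uptake carrier, differed by 2.04 ± 1.37 (1370571_at), but by 0.23 ± 0.10 in its other, dimmer probe set. Neither was bright enough to be tested. By 1370571_at, both eyes exceeded the limit in rat 1 only. OD stood at 0.0926 and 0.346 times the limit in rats 2 and 3, and OS of rat 3 at 0.889 times. Ptgr1, a prostaglandin reductase, was above the limit on all 6 arrays, from 772.9 to 2015.9, and differed by 0.05 ± 0.89. Hpgd, the dehydrogenase that inactivates prostaglandins, exceeded the limit on 1 array by 1376191_at and on 0 by 1387631_at.

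**Figure D3:**
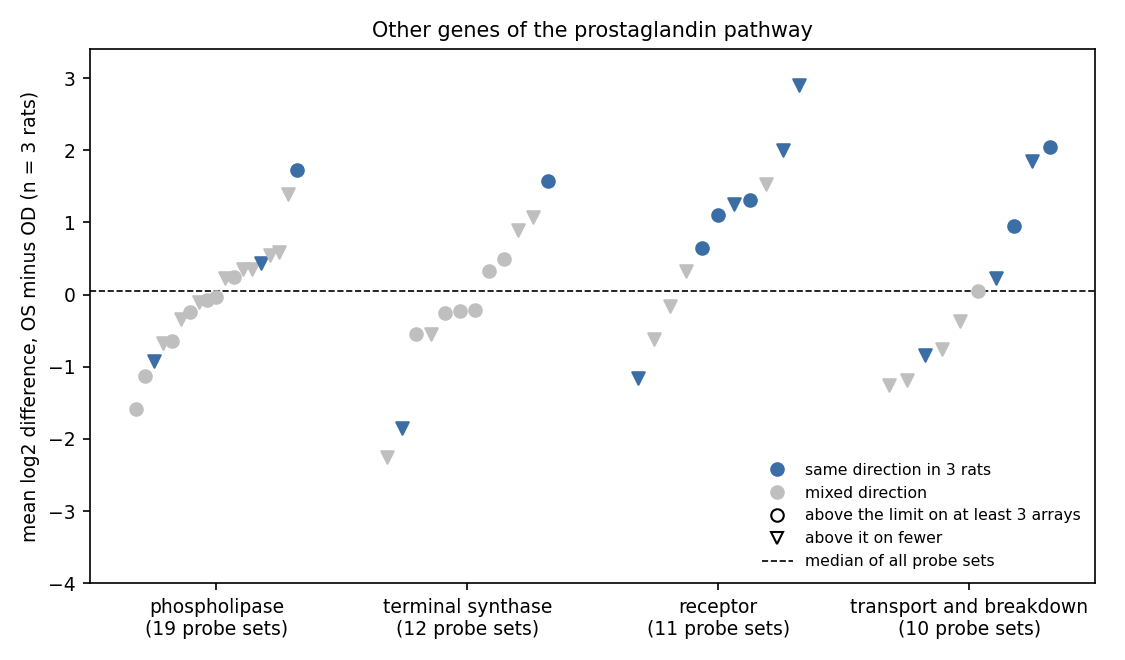
Mean difference between eyes (OS minus OD, log2 scale, n = 3 rats) of 52 probe sets of other pathway genes by role; blue marks the same direction in 3 rats, triangles mark probe sets above the control limit on fewer than 3 arrays, and the dashed line is the median of all probe sets, 0.05. The receptors' highest points are triangles, that is, mostly background.

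A further 3 sets of genes around the pathway were read the same way: the lipoxygenase branch, inducers of Ptgs2 with related signalling genes, and immediate early genes. The lipoxygenase branch uses the same substrate, and the immediate early class includes Ptgs2 in neurons. The inducer set does not hold inducers alone, since it includes Nfkbia, which encodes an NF-kappa B inhibitor, and the nitric oxide synthase gene Nos2. By limma, 0 of 4, 0 of 6 and 0 of 13 tested probe sets passed, with smallest adjusted p-values of 0.829, 0.799 and 0.845, and 0 of these 23 had an unadjusted p under 0.05. Their median differences were 0.06, 0.52 and 0.00. Immediate early genes had 2 of 32 probe sets higher in OS in all 3 rats and 2 lower, shares below the 14.9% and 12.2% of all probe sets. Those named by rule were Nr4a1, an orphan nuclear receptor gene, at 0.74 ± 0.39 and Homer1, a synaptic scaffold gene, at 0.64 ± 0.48 by 1370454_at. The other 4 probe sets of Homer1 had lower means in OS, from -0.54 to -1.61, each above the limit on at most 2 arrays, and 1368319_a_at was lower in 3 of 3 rats.

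Ltc4s, the leukotriene C4 synthase, differed by 0.81 ± 0.83. Rela, an NF-kappa B subunit, was above the limit on all 6 arrays and differed by 0.19 ± 0.77. Hif1a, the hypoxia-inducible factor, was lower in OS in 3 of 3 rats by -1.24 ± 1.90, mostly in rat 1. Named after their values were seen, Tlr4, the receptor for bacterial lipopolysaccharide, read 47.7, 31.1 and 25.6 in OD and 425.4, 431.6 and 1452.1 in OS, where 2 of 3 arrays were above the limit. Against the limit of the OD array, its OS value was 1.63 times in rat 1, 0.731 times in rat 2 and 4.96 times in rat 3, so that rat 2 gives no bound above 1. The tumour necrosis factor receptor gene Tnfrsf1a read 567.2, 437.7 and 324.5 in OD and 22.9, 108.3 and 39.6 in OS. In both genes the eyes did not overlap, as for 10.0% of all probe sets, and both were too dim on average to be tested. They were picked from the 21 probe sets of the inducer set, so nothing is read from their lack of overlap.

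The probe set for Ptgs2os, the noncoding neighbour of Ptgs2, was named after its values were seen. It read 220.6 (OD) and 976.0 (OS) in rat 1, 162.7 and 452.7 in rat 2, then 682.7 and 700.0 in rat 3. The left eye was higher in 3 of 3 rats, by 1.16 ± 1.04 (limma adjusted p = 0.81). In rat 3 both eyes were above the limit and nearly equal, with a difference of 0.04, in rat 1 OS alone exceeded it, and in rat 2 neither eye did.

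Genes with the pattern most like that of a member were ranked by Pearson's r of log2 values over the 6 arrays, among 9484 probe sets with 1 symbol, enough brightness to be tested and signal above the limit on at least 3 arrays. For Ptgs2 these were the phosphodiesterase gene Pde8b (r = 0.997), the serotonin receptor gene Htr5b (0.990), the DNA repair gene Rad18 (0.989), Engase, which encodes a deglycosylating enzyme (0.988), and Parg, which encodes a poly(ADP-ribose) hydrolase (0.983). Pde8b ran in nearly the same order but over a narrower range, from 759.3 in OD of rat 3 to 3096.2 in OS of rat 1. Rad18 was the closest in size, from 21.9 to 4416.0, but was lower in OS in rat 1. With only 6 arrays from 3 animals, 190 of the 9484 had r above 0.9 with Ptgs2, so such values are common here.

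For the first Ptgs1 probe set the nearest were Htr1b (0.997), Tox3 (0.993), Ptprc (0.992), Map4k4 (0.991) and Parp14 (0.989), and 262 probe sets exceeded 0.9. Ptprc encodes the leukocyte surface protein CD45. For Ptgds they were Id4 (0.988), Slc35b1 (0.984), C12h12orf43 (0.975), Zbtb20 (0.970) and Vdac1 (0.970), and 45 exceeded 0.9.

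**Figure D4:**
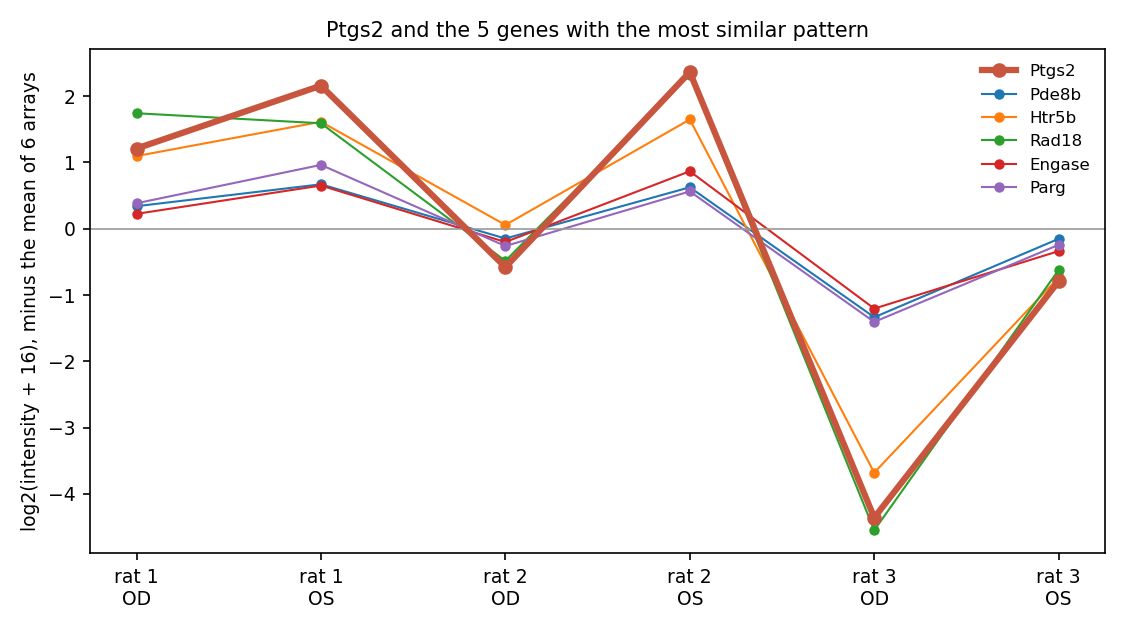
Log2(intensity + 16) of Ptgs2 and of the 5 genes most like it, each minus its own mean over the 6 arrays. All 6 genes are lowest in OD of rat 3, and Pde8b, Engase and Parg span a narrower range than Ptgs2.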

How the data were processed

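The members and all gene lists were chosen with earlier results of these data known. Per the labels' protocols, RNA was purified (PicoPure), amplified in a linear manner (RiboAmp HS) and, as 10 µg of input, biotin-labelled for 1-colour Affymetrix arrays. The deposited values are intensity values, 1 per probe set, made by the authors with GCOS (per the submitters' processing notes), of which version and settings are not stated in what was used here. They were taken as already scaled, and no detection calls were used here.

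An offset of 16 was added before log2, which understates changes of dim probe sets. Of 31099 probe sets, 57 controls were left out, and the platform annotation gave 1 symbol for 20826, several for 436 and none for 9780. The 5 member symbols were all found in the reference gene table of build GRCr8. Probe sets at or above the median mean log2 value were tested, 15521 in all, including 4 of the 7 members: Ptgs2, both of Ptgs1 and 1368015_at of Ptges. OS was compared with OD by limma 3.58.1 in R 4.3.3 across these probe sets, with a fixed term for rat, a prior variance that follows intensity, two-sided p-values and Benjamini-Hochberg adjustment at 0.05. Residual degrees of freedom were 2 and prior ones 19.4, and the fit was tested on simulated data. Both eyes of a rat are paired because they come from 1 animal, per the labels; deviations from the group means correlated between its eyes at 0.109, 0.122 and 0.326 in rats 1 to 3. Means and SDs of members are over the 3 within-rat differences. Where 1 eye of a rat lies at or below its control limit, a bound is the other eye's intensity over that limit. With 6 arrays, precision is limited by their number.

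Named were all members, pathway probe sets above the limit on all 6 arrays, and, per role, up to 2 with the largest difference among those above it on at least 3 arrays with 1 direction in all rats. Added were the 5 genes most like each member that exceeded the limit on at least 3 arrays, by its brightest probe set, and 5 ganglion cell markers. Genes named in addition illustrate a role or a disagreement between probe sets and were chosen after their values were seen. List names absent from the array were matched through synonyms in the gene table. Alternatives were another offset, filter, normalization, block, prior, control limit, and leaving out each rat.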

Additional observations from a re-analysis of the deposited data

How the results depend on the processing

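The Ptgs2 difference of 2.48 stayed positive in each rat with an offset of 1 (mean 2.70) or 64 (2.12), after quantile normalization (2.49) and with each rat left out (1.94 to 3.25). The count of 0 called probe sets in the rest of the pathway was 0 under every alternative run (0 to 3 at an unadjusted p under 0.05). The count of 2 called among all probe sets was 0 by limma with an offset of 1 (1023 at an unadjusted p under 0.05), the 75th percentile filter (638), quantile normalization (974), no replicate block (546), a random replicate block (848) and no trend (855); the cause was not tested. It was 9 with an offset of 64, 9 with no filter, and 17 to 52 with each rat left out, where the filter was set anew on 4 arrays. Member probe sets with 1 direction in all rats numbered 2 after quantile normalization, where Ptgds joined Ptgs2, and 2 to 4 with a rat left out, where 50.2% to 53.2% of all probe sets have 1 direction. Member probe sets above the limit on all arrays numbered 0, also with the 90th percentile or the highest control as limit and with each rat left out, and 1, 1368015_at of Ptges, with the median control. Besides Ptgs2 and Ptgis, each member's mean difference changed sign without at least 1 rat. Of the member values, 24 of 42 lay at or below the control limit, beside 54.5% of all, so many differences are not measured on both sides.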
